A study of Mus musculus with 6 samples.

Results

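Plau, Plaur and Plat encode the core of the plasminogen activation system, and all 3 were measured in D2.OR cells, a mouse mammary tumor line used as a model of metastatic latency. Plau encodes urokinase, Plaur encodes the urokinase receptor (uPAR) and Plat encodes tissue-type plasminogen activator. The members were 3 of the 22180 genes that held a transcript cluster of their own, a transcript cluster being the set of array probes summarized for 1 transcript unit. A cluster was used where its annotation gave exactly 1 gene symbol, and clusters were chosen by the highest mean signal over the 6 arrays where a gene had several. Each of the 3 members had 1 cluster of this kind, so this choice left nothing out for them, and the mean used for it is no finding.

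Urokinase is secreted as an inactive pro-enzyme, is activated by proteolytic cleavage and cuts plasminogen into plasmin, a broad protease that digests fibrin and pericellular matrix. uPAR is anchored to the cell surface by a glycolipid, concentrates urokinase there, and, having no cytoplasmic domain, is known to act through vitronectin and integrins. Tissue-type plasminogen activator makes the same cut in plasminogen, but mainly at the surface of fibrin. In mammary tumors, the urokinase arm is known for its association with invasion.

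The samples fell into 3 groups of 2 arrays, all from D2.OR cells kept for 7 days in 3D-culture on a Cultrex basement membrane cushion. Parental cells carried the empty vector and no construct for BORG, a long noncoding RNA. BORG cells expressed BORG stably. BORG/sgTRIM28 cells carried the same BORG construct and, in addition, a CRISPR/Cas9 guide against TRIM28, a nuclear co-repressor protein. Both BORG groups thus carried the construct and only 1 of them was edited, but no BORG level is given here for any array. Cas9 and the guide came on a lentiviral vector with puromycin selection. The sources used here do not say whether parental and BORG cells carried a control guide, so the BORG groups may differ in more than TRIM28. Each group was an established, drug-selected line, and the sources used here do not say whether it was a pool or a clone. The labels called the arrays biological replicates, and nothing in them said that replicates came from separately derived lines, so the p-values measure the spread between these arrays.

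Values are the deposited log2 signals, whose medians over all clusters lay between 5.18 and 5.24 on the 6 arrays, and arrays of a group correlated at r of 0.989 to 0.992 across clusters. Trim28, the edited gene, read 10.49 and 10.68 in parental cells, 9.88 and 9.96 in BORG cells, and 9.49 and 9.53 in BORG/sgTRIM28 cells. The edited line therefore had the lowest Trim28 RNA, but its difference from BORG cells of 0.41 (adjusted p = 0.0911, limma) and from parental cells of -1.07 (adjusted p = 0.058) did not pass the test. The BORG minus parental difference of -0.67 did pass (adjusted p = 0.0271, limma), so the unedited BORG line also had lower Trim28 RNA than parental cells. A transcript cluster does not read the protein. Among cell type markers, 9 of 10 mammary epithelial genes were measured. Their summed linear signal was 2750 to 2920 in parental, 6580 to 7130 in BORG and 3260 to 3290 in BORG/sgTRIM28 cells. Of the 9, the 3 keratin genes Krt8, Krt18 and Krt14 were higher in BORG cells in each comparison and 0 were lower, and the list medians were 0.11 against parental and 0.08 against edited cells. Over all genes, 5.75% were called higher and 3.95% lower against parental cells, and 7.44% and 5.08% against edited cells. Epcam, a defining epithelial marker, lay between 4.68 and 5.01 on all arrays, below each array's median. Of the fibroblast markers, Col1a1 was higher and Pdgfra, the brightest at 12.28 and 12.29 in parental and 10.93 and 11.15 in BORG cells, was lower, and 6 of 8 were not called. The summed signal of the 8 was 5620 in parental, 3300 to 3380 in BORG and 4760 to 4790 in BORG/sgTRIM28 cells. Of 7 leukocyte, 7 endothelial and 4 adipocyte markers, limma called 0 in either BORG comparison (at an unadjusted p under 0.05, 0, 1 and 0 in each comparison), and 5, 4 and 2 of them lay below the median on all 6 arrays. In lists this short, a count of 0 is near the shares over all genes. Leukocyte sums were 401 to 417, 389 to 440 and 436 to 447 in parental, BORG and BORG/sgTRIM28 cells, endothelial sums were 282 to 289, 272 to 310 and 236 to 242, and adipocyte sums were 122 to 127, 118 to 133 and 138 to 140. The epithelial and fibroblast sums, which these few genes carried, moved with the BORG comparisons below, and their part in those results was not tested.

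The promoter of Plaur is shown because, of the 3 members, only Plaur matched the RefSeq promoter table. AP-1 and GC box sequences upstream of the uPAR gene are known from human cells. The 250 bases before the annotated start lie on the plus strand at chr7:24462233-24462482 of GRCm38.p6, with matches to AP-1 and GC box sequences in capitals.
Plaur: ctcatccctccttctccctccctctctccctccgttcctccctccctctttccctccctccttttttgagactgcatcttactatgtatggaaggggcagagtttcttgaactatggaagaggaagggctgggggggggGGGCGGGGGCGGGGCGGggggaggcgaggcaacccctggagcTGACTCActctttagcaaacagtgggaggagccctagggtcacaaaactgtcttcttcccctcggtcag

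The search covered both strands and 4 motifs that were chosen after the sequence had been seen. AP-1, spelled TGAGTCA, matched once on the reverse strand at positions -69 to -63 from the start, and 4.46% of the 32851 promoter windows of this length hold it. The GC box GGGCGG matched at 3 places, -111 to -106, -105 to -100 and -100 to -95, of which the last pair share 1 base, and 32.7% of windows hold at least 1. Neither the TATA box TATAAA (12.4% of windows) nor the cAMP response element TGACGTCA (1.55%) was present in these letters. A match describes the letters and is no evidence of binding.

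Plau was the member with the largest difference between groups. Its log2 signal was 6.88 and 7.22 in parental cells, 10.58 and 10.02 in BORG cells, and 7.13 and 7.09 in BORG/sgTRIM28 cells. Both BORG arrays stood far above the other 4, and the edited arrays fell inside the parental range. BORG cells had 9.5 times the parental signal, a log2 difference of 3.25 ± 0.21 (SE, n = 2 per group; 95% interval 2.73 to 3.77; adjusted p = 0.00167, limma). In a ranking of the 22180 genes from the largest increase downward, Plau stood at 24. The difference between BORG and BORG/sgTRIM28 cells was 3.18 ± 0.21, or 9.08-fold (95% interval 2.66 to 3.70; adjusted p = 0.00116, limma), at rank 38. Edited and parental cells differed by 0.06, with an interval from -0.46 to 0.58 (adjusted p = 0.961, limma), which does not show that the levels were equal. Without parental replicate 1 this small difference changed sign, to -0.10.

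**Figure D1:**
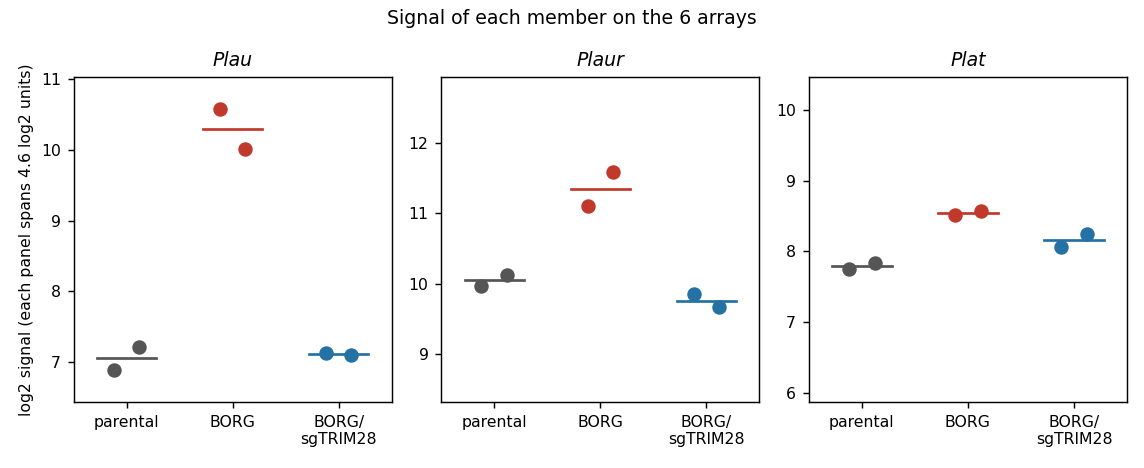
Log2 signal (vertical axis) of Plau, Plaur and Plat on each of the 6 arrays, by group, with a bar at the mean of the 2 arrays. The BORG arrays are the highest for each gene, and the BORG/sgTRIM28 arrays lie within the parental range for Plau (7.09 and 7.13), below it for Plaur (9.67 and 9.85) and above it for Plat (8.07 and 8.25).

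Plaur, the receptor of urokinase, moved in the same direction by a smaller amount. Its log2 signal was 9.98 and 10.13 in parental cells, 11.10 and 11.58 in BORG cells, and 9.85 and 9.67 in BORG/sgTRIM28 cells. The 3 groups did not overlap, with BORG cells highest and the edited cells lowest, which with 2 arrays a group is no test. The BORG to parental difference was 1.28 ± 0.18 (SE, n = 2 per group; 2.44-fold; 95% interval 0.84 to 1.73; adjusted p = 0.0153, limma), at rank 371. Against BORG/sgTRIM28 cells the difference was 1.57 ± 0.18 (2.98-fold; 95% interval 1.12 to 2.02; adjusted p = 0.00675, limma), at rank 315. The gap between edited and parental cells, -0.29 (95% interval -0.74 to 0.16; adjusted p = 0.727, limma), did not pass the test. The call against parental cells was lost without parental replicate 1 (1.21, adjusted p = 0.104, limma) or 2 (1.36, adjusted p = 0.0891). The call against edited cells was lost without BORG/sgTRIM28 replicate 2 (1.49, adjusted p = 0.0578, limma).

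Plat had the smallest differences of the 3 in both BORG comparisons and, by its array readings, another order of groups. Its log2 signal was 7.75 and 7.83 in parental cells, 8.51 and 8.58 in BORG cells, and 8.07 and 8.25 in BORG/sgTRIM28 cells. No groups overlapped, and the edited cells lay between parental and BORG cells rather than beside the parental ones. With 2 arrays a group, such an order is no test. The rise from parental to BORG cells was 0.75 ± 0.12 (SE, n = 2 per group; 1.69-fold; 95% interval 0.47 to 1.04; adjusted p = 0.0194, limma), at rank 1072. The 2 neighbouring steps each missed the threshold. BORG exceeded BORG/sgTRIM28 cells by 0.39 ± 0.12 (95% interval 0.10 to 0.68; adjusted p = 0.104, limma). BORG/sgTRIM28 exceeded parental cells by 0.36 ± 0.12 (95% interval 0.08 to 0.65; adjusted p = 0.472, limma). The call against parental cells did not hold without any 1 of the 4 arrays compared, where adjusted p by limma was 0.128 and 0.113 (without parental replicate 1 or 2) and 0.0729 and 0.054 (without BORG replicate 1 or 2). These are RNA extracts of whole cultures, in which fewer expressing cells and less RNA per cell cannot be told apart.

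**Figure D2:**
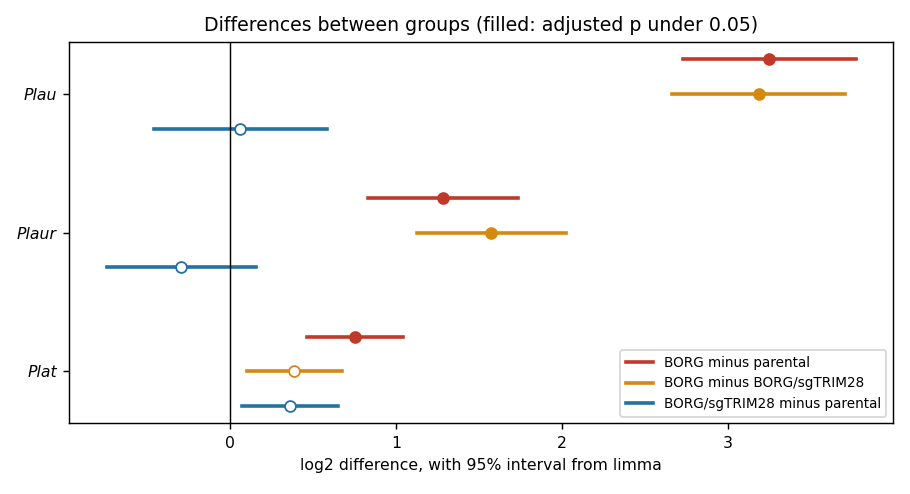
Log2 differences between groups (horizontal axis) for Plau, Plaur and Plat with 95% intervals from limma, filled where the adjusted p was under 0.05. Plau (3.25 and 3.18) and Plaur (1.28 and 1.57) were called in both comparisons of BORG cells, Plat (0.75) only against parental cells, and none between BORG/sgTRIM28 and parental cells.

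Counted together, 3 of 3 members were higher in BORG than in parental cells, where 5.75% of all 22180 genes were called higher and 3.95% lower. Against BORG/sgTRIM28 cells 2 of 3 were higher, beside 7.44% of genes called higher and 5.08% lower. Between BORG/sgTRIM28 and parental cells limma called 0 of 3, beside 0.0676% of genes higher and 0.0947% lower, and Plat alone had an unadjusted p under 0.05, 0.0208. The methods' t-test, after adjustment, called 0 genes in any of these comparisons. The members were listed with earlier results of these data known, and the first pair of comparisons share the BORG arrays, so nothing is read from these counts beyond the members' own values.

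The rest of the pathway was followed in 8 lists with 109 genes, of which 97 were measured. These lists were chosen with earlier results of these data known, and both BORG comparisons share the BORG arrays. Their counts, here and list by list below, therefore only describe the listed genes. In BORG over parental cells 24 were higher and 3 lower, or 24.7% and 3.09% beside 5.75% and 3.95% of all genes, with a median log2 difference of 0.09 where the median of all genes was -0.03. In BORG over BORG/sgTRIM28 cells 26 were higher and 3 lower, or 26.8% and 3.09% beside 7.44% and 5.08%, with a median of 0.07 beside -0.06 over all genes. Between BORG/sgTRIM28 and parental cells 1 gene, Fn1, was higher and 0 were lower by limma (17 of the 97 had an unadjusted p under 0.05), with a median of -0.003 beside 0.01. The count of 27 called against parental cells fell to 8 or 9 without parental replicate 1 or 2. That of 29 against edited cells fell to 19, 16 and 14 without BORG replicate 1, BORG/sgTRIM28 replicate 1 and BORG/sgTRIM28 replicate 2.

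**Figure D3:**
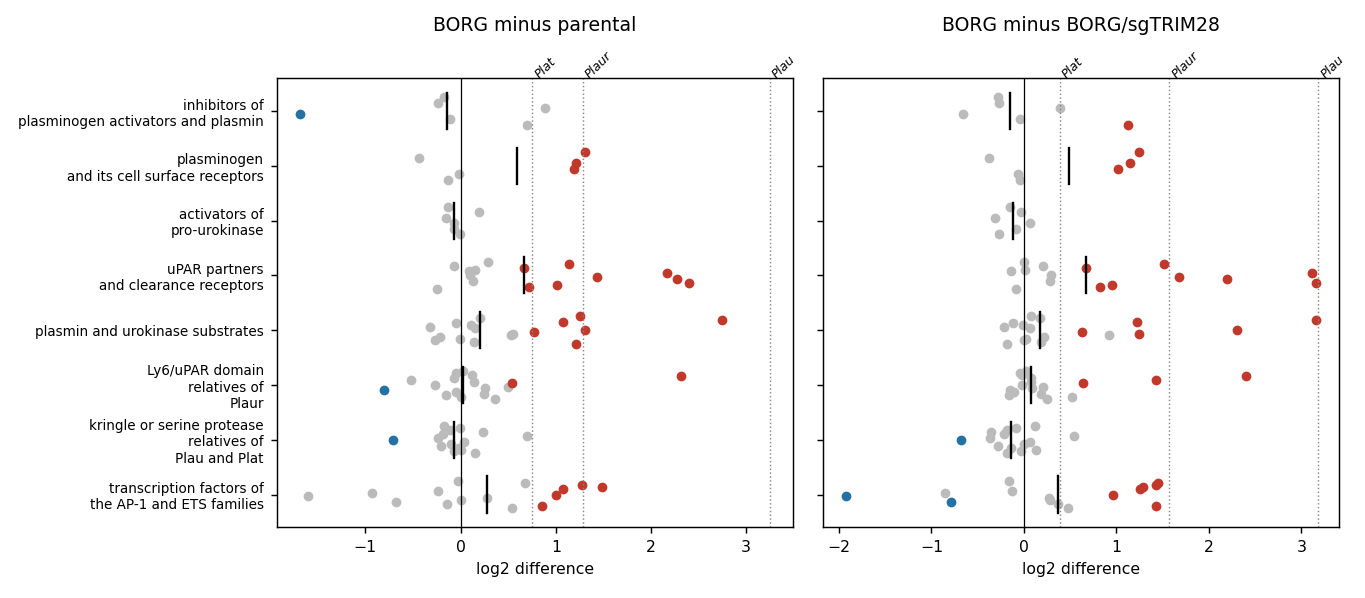
Log2 differences (horizontal axis) of the measured genes of each of the 8 pathway lists in both comparisons of BORG cells, 1 point a gene, red (higher) or blue (lower) where limma's adjusted p was under 0.05 and grey otherwise, with a black bar at the list's median and dotted lines at the members' values. The uPAR partners and clearance receptors hold 8 called genes of 15 in each comparison and the activators of pro-urokinase hold 0 of 6. Shares of all genes called higher and lower were 5.75% and 3.95% against parental cells, and 7.44% and 5.08% against edited cells.

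The inhibitors of the activators and of plasmin were measured for 6 of 9 genes. Serpinb2, which encodes plasminogen activator inhibitor type 2, read 3.58 and 3.70 in parental, 4.50 and 4.17 in BORG, and 3.33 and 3.10 in BORG/sgTRIM28 cells. These signals were low but the BORG arrays were the highest, by 1.12 ± 0.16 over the edited cells (adjusted p = 0.0116, limma) and by 0.70 ± 0.16 over parental cells (adjusted p = 0.0551). Serpini1, which encodes neuroserpin, an inhibitor of tissue-type plasminogen activator, went the other way. It read 5.28 and 5.27 in parental, 3.95 and 3.23 in BORG, and 4.18 and 4.31 in BORG/sgTRIM28 cells. The fall of 1.69 ± 0.23 from parental to BORG cells passed the test (adjusted p = 0.0141, limma), and the BORG minus BORG/sgTRIM28 value of -0.65 (adjusted p = 0.156) did not. The BORG and edited readings of Serpini1 lay below the array medians, too low for the size of these differences to be read closely. The other 4 were called in neither comparison, and the list's medians were -0.14 and -0.15. The 1 gene called lower against parental cells is 16.7% of the list, beside 3.95% of all genes. The 1 called higher against edited cells is 16.7%, beside 7.44%.

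Plasminogen itself, Plg, which is made chiefly by the liver, stayed between 5.18 and 5.40 on all 6 arrays, near the array medians. Its BORG minus parental value was -0.13 (adjusted p = 0.576, limma). Of the 6 genes measured in the list of plasminogen and its cell surface receptors, 3 were higher in BORG cells in both comparisons and 0 lower. The share called higher was 50% in each, beside 5.75% and 7.44% of all genes. Anxa2 and S100a10, whose products form the annexin A2 complex that binds plasminogen, rose by 1.19 ± 0.10 and 1.21 ± 0.12 over parental cells (adjusted p = 0.00331 and 0.00521, limma). Over edited cells they were higher by 1.02 and 1.15. Anxa2 read 10.53 and 10.57 in parental, 11.71 and 11.77 in BORG, and 10.71 and 10.73 in BORG/sgTRIM28 cells. For both genes the BORG arrays were far above the rest, and the edited arrays of S100a10 (10.85 and 10.98) overlapped the parental ones. Krt8, a keratin that can bind plasminogen at the surface and that is also one of the epithelial markers above, was higher by 1.31 ± 0.14 and 1.24 (adjusted p = 0.00634 and 0.00585, limma). Plgrkt, a transmembrane plasminogen receptor, differed by -0.01 and -0.06 and was called in neither comparison.

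Among the proteases able to activate pro-urokinase, limma called 0 of 6 measured genes in either comparison (0 and 1 had an unadjusted p under 0.05). Of all genes, 5.75% were called higher and 3.95% lower against parental cells, and 7.44% and 5.08% against edited cells. For 6 genes a count of 0 is near those shares, so it does not set this list apart. Their differences ran from -0.15 to 0.19 against parental cells and from -0.31 to 0.06 against edited cells. St14, which encodes matriptase, read 5.47 and 5.34 in parental, 5.33 and 5.47 in BORG, and 5.71 and 5.63 in BORG/sgTRIM28 cells. The edited arrays were the highest for this gene, by 0.27 over parental cells (adjusted p = 0.606, limma) and by 0.27 over BORG cells (adjusted p = 0.231, BORG minus BORG/sgTRIM28 value -0.27).

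Partners of uPAR at the membrane and receptors that clear urokinase formed the list with the most genes called higher in each comparison. Of 15 measured, 8 were higher in BORG cells in each comparison (53.3%, beside 5.75% and 7.44% of all genes) and 0 lower. The list medians were 0.67 and 0.67. Itgb3, the beta subunit of the vitronectin receptor, read 7.81 and 7.82 in parental, 10.52 and 9.92 in BORG, and 6.95 and 7.17 in BORG/sgTRIM28 cells. BORG arrays were highest, with differences of 2.40 ± 0.21 (adjusted p = 0.00342, limma) and 3.15 (adjusted p = 0.00116). The edited arrays lay below the parental ones, but that gap of -0.75 did not pass (adjusted p = 0.399, limma). Lrp1, an endocytic receptor that clears urokinase from the surface, read 9.61 and 9.62 in parental, 11.87 and 11.71 in BORG, and 8.85 and 8.50 in BORG/sgTRIM28 cells. It had the same order as Itgb3, with BORG cells higher by 2.17 ± 0.15 and 3.11 (adjusted p = 0.00187 and 0.000496, limma). The gap of -0.94 between edited and parental cells did not pass (adjusted p = 0.151). Itga3, an integrin alpha subunit that binds laminins and associates with uPAR, read 8.93 and 9.04 in parental, 11.29 and 11.22 in BORG, and 9.11 and 8.996 in BORG/sgTRIM28 cells, and like Plau its edited and parental arrays overlapped. Its differences were 2.27 ± 0.11 and 2.20 (adjusted p = 0.000941 and 0.000597, limma). Itga5, the alpha subunit of the fibronectin receptor, was higher by 1.43 ± 0.15 and 1.67 (adjusted p = 0.00634 and 0.00296, limma). The other 4 called genes, Egfr, Itgb1, Itgav and Igf2r, ranged from 0.67 to 1.14 against parental and from 0.67 to 1.51 against edited cells.

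Of 17 substrates of plasmin or urokinase, 6 were higher in BORG than in parental cells and 5 than in BORG/sgTRIM28 cells, with 0 lower. The shares called higher were 35.3% and 29.4%, beside 5.75% and 7.44% of all genes. Lamb3, a laminin chain of the basement membrane, read 6.96 and 6.78 in parental, 9.47 and 9.76 in BORG, and 6.30 and 6.62 in BORG/sgTRIM28 cells. Its differences of 2.75 ± 0.17 and 3.16 (adjusted p = 0.0014 and 0.000669, limma) were the largest of the list. Tgfb1, whose latent protein plasmin can activate, was higher by 1.31 ± 0.13 and 2.31 (adjusted p = 0.00507 and 0.000712, limma). Its edited arrays (9.05 and 8.88) read below the parental arrays (9.96 and 9.96), but that gap of -0.998 did not pass (adjusted p = 0.0879, limma). Mmp13, a collagenase made as a pro-enzyme, was called only against the edited cells (1.24 ± 0.21, adjusted p = 0.022, limma), and its difference from parental cells was 0.55 (adjusted p = 0.208). Thbs1 and Fn1, which encode the matrix proteins thrombospondin-1 and fibronectin, had another pattern. Thbs1 read 8.35 and 8.61 in parental cells, 9.83 and 9.65 in BORG cells, and 9.71 and 9.62 in BORG/sgTRIM28 cells. Fn1, named after its values were seen, read 10.69 and 10.69, then 12.02 and 11.80, then 12.20 and 11.98. For both genes the edited arrays read near the BORG arrays, but of the BORG/sgTRIM28 minus parental differences only that of Fn1 passed the test (1.40, adjusted p = 0.0373, limma; lost when any single array was left out) and that of Thbs1 did not (1.19, adjusted p = 0.0731). Thbs1 was 1.26 ± 0.14 higher in BORG than in parental cells (adjusted p = 0.00724, limma) and Fn1 1.22 ± 0.13 (adjusted p = 0.0072). The BORG minus BORG/sgTRIM28 values were 0.07 for Thbs1 (adjusted p = 0.812, limma) and -0.19 for Fn1 (adjusted p = 0.475).

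**Figure D4:**
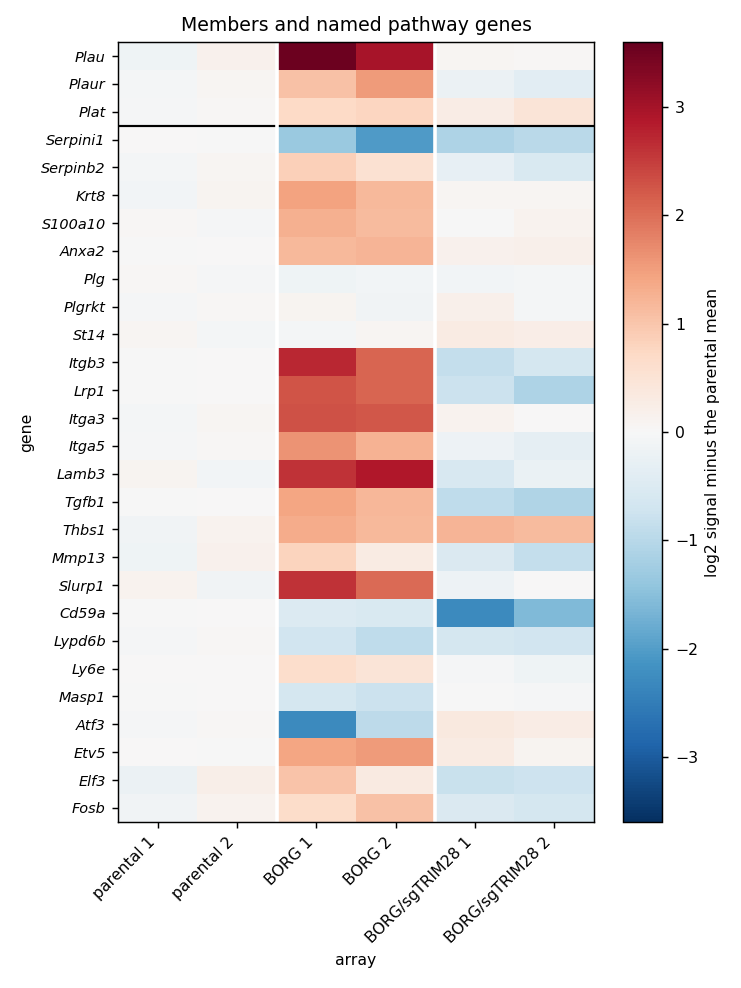
Log2 signal of the members and of the named pathway genes on each array (columns), relative to the gene's mean over the parental arrays (color scale, log2). Plau, Itga3, Krt8 and S100a10 are high on the BORG arrays alone, whereas Thbs1 is high on the BORG (9.83 and 9.65) and the BORG/sgTRIM28 arrays (9.71 and 9.62).

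Among relatives of the members by protein fold, the called genes were few and are read beside the shares over all genes. In the Ly6/uPAR domain family, BORG cells exceeded parental cells in 2 of 17 measured genes (11.8%, beside 5.75% of all genes) and fell below them in 1 (5.88%, beside 3.95%). Against edited cells 3 were higher (17.6%, beside 7.44%) and 0 lower. Slurp1, a secreted member of that family, read 5.60 and 5.37 in parental, 8.09 and 7.52 in BORG, and 5.31 and 5.50 in BORG/sgTRIM28 cells. It was 2.32 ± 0.21 and 2.40 higher in BORG cells (adjusted p = 0.00384 and 0.00268, limma). Ly6e, a glycolipid-anchored surface protein, was higher by 0.54 and 0.64 (adjusted p = 0.0474 and 0.0256, limma). Cd59a, an inhibitor of complement lysis, was higher in BORG than in edited cells by 1.43 ± 0.22 (adjusted p = 0.0165, limma), with parental arrays (6.83 and 6.86) above the BORG arrays (6.36 and 6.30). Lypd6b read 4.78 and 4.89 in parental, 4.13 and 3.93 in BORG, and 4.20 and 4.16 in BORG/sgTRIM28 cells, all below the array medians. Its BORG minus parental value was -0.80 ± 0.12 (adjusted p = 0.018, limma), at a signal too low for the size of the difference to be read closely. Among 15 kringle or serine protease relatives of Plau and Plat, Masp1, a protease of the lectin pathway of complement, was the single called gene, lower in each comparison (6.67%, beside 3.95% and 5.08% of all genes). It read 10.10 and 10.15 in parental, 9.49 and 9.35 in BORG, and 10.11 and 10.08 in BORG/sgTRIM28 cells and was lowest on the BORG arrays, with edited and parental arrays overlapping. Its values were -0.71 ± 0.11 and -0.68 (adjusted p = 0.019 and 0.018, limma).

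AP-1 and ETS family transcription factors, the families known to act on Plau and Plaur regulatory DNA, had 15 measured genes. Against parental cells 5 of them were higher in BORG cells (33.3%, beside 5.75% of all genes) and 0 lower. Against edited cells 6 were higher (40%, beside 7.44%) and 2 lower (13.3%, beside 5.08%). Fosb, an AP-1 subunit, read 6.53 and 6.75 in parental, 7.29 and 7.70 in BORG, and 6.12 and 6.01 in BORG/sgTRIM28 cells. It was higher in BORG cells by 0.85 ± 0.17 and 1.43 (adjusted p = 0.0414 and 0.0075, limma). Etv5, an ETS factor, was higher by 1.48 ± 0.12 and 1.29 (adjusted p = 0.00286 and 0.00356, limma), while a second, dimmer cluster with its symbol gave -0.20 and -0.21. Elf3, an epithelial ETS factor, passed only against edited cells (1.45 ± 0.26, adjusted p = 0.0252, limma) and gave 0.68 against parental cells (adjusted p = 0.205). The lower genes against edited cells were Jun and Atf3, both AP-1 subunits or partners, with Jun named after its values were seen. Jun gave -0.79 (adjusted p = 0.0321, limma) and Atf3 -1.92 ± 0.40 (adjusted p = 0.0388). The 2 BORG arrays of Atf3 were far apart, at 7.75 and 9.09, where the parental arrays read 9.98 and 10.07.

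The genes whose 6 values lay nearest to a member's, each gene centred on its own mean, were found by Euclidean distance over the 6 arrays. For Plau they were Itgb4, Itga6, Msln, Adam8 and Nqo1, at distances of 0.34, 0.36, 0.45, 0.49 and 0.53. Itgb4 and Itga6 encode the partner chains of the laminin-binding integrin of hemidesmosomes, Msln encodes the surface protein mesothelin, Adam8 a membrane metalloprotease and Nqo1 a quinone reductase. Itgb4 read 6.21 and 6.27 in parental, 9.45 and 9.0 in BORG, and 6.18 and 6.19 in BORG/sgTRIM28 cells. Their BORG minus parental values ran from 2.74 for Nqo1 to 3.37 for Msln. For Plaur the nearest were Nxph4 (0.15), H2bc12 (0.19), Gm2046 (0.30), Zfp703 (0.30) and Fam110c (0.30). For Plat they were Foxl1 (0.19), Isca2 (0.21), Phykpl (0.21), Relb (0.21) and Gm10451 (0.21). By Pearson's r, which ignores the size of a change, other genes came first, namely Zdhhc1 for Plau (r = 1.00), Pdgfa for Plaur (0.999) and B230219D22Rik for Plat (0.989), and of the 22179 other genes 1151, 541 and 93 had r above 0.95 with Plau, Plaur and Plat. These 6 points form 3 groups of 2 from the same arrays, so likeness here reflects mainly the 3 group means.

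**Figure D5:**
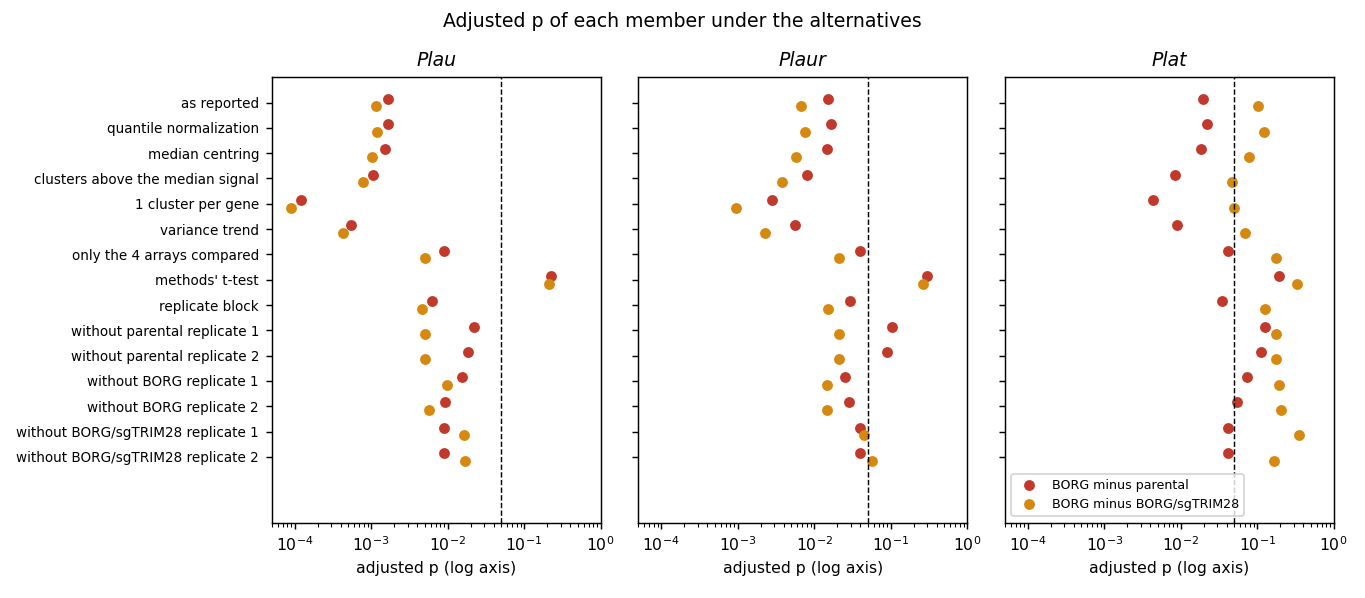
Adjusted p (horizontal log axis) of each member in the 2 BORG comparisons for the values as reported and for each of 14 other settings (rows), with a dashed line at 0.05. Plau stays left of the line in every setting but the methods' t-test (0.223 and 0.214), Plaur and Plat against parental cells cross it when single arrays are left out, and Plat against BORG/sgTRIM28 cells is left of it in 2 settings (0.047 and 0.0491).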

How the data were processed

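RNA from D2.OR cells of 3 groups, 2 arrays each, was hybridised by the authors to Affymetrix Mouse Gene 2.0 ST arrays. The deposited values are log2 signals for 41345 transcript clusters, made by the authors and credited in the submitters' processing notes to Affymetrix Expression Console and Transcriptome Analysis Console, while the summarization method was not given in the sources used here. Such summaries are usually normalized across arrays, in which case a shift shared by most genes would not be visible. Symbols came from the platform annotation. The members and gene lists were chosen with earlier results of these data known.

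The deposited log2 values were fitted by group in limma 3.58.1 (R 4.3.3), with 3 residual and 3.04 prior degrees of freedom, and p-values were adjusted over all 41345 clusters by the Benjamini-Hochberg method. A gene was called at an adjusted p under 0.05, and errors are limma's. With 2 arrays against 2, an exact two-sided permutation test cannot go below p = 0.333, so none is given. The genes named were the members, up to 4 called genes with the largest change in each list, 9 core genes of the pathway whatever their change, and the 5 nearest genes to each member. The number of arrays limits the precision. The fit was tested on simulated data: of 40 clusters planted with a log2 difference of 1 between BORG and parental cells among 41345, 27.5% were called, and of those planted with 3, 100%. Between BORG and BORG/sgTRIM28 cells the shares were 30% and 95%. Both comparisons were simulated with the same spread, so these shares differ by random draws alone. Far fewer clusters were planted than were called in these data, which makes the adjusted threshold stricter in the simulation. The shares are therefore not the rate at which real differences of these sizes were called. Alternatives covered the scaling, the clusters tested, the variance model, the arrays fitted, the methods' t-test and the replicate number. Python 3.11.15 with pandas 2.3.3 searched the promoter sequence.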

Additional observations from a re-analysis of the deposited data

How the results depend on the processing

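Over 14 alternatives to each of the members' 9 differences, 18 fits repeated another one exactly, since leaving out an array of the group not compared leaves the fit of the 4 arrays compared. Of the 108 distinct fits, 93 kept the direction and the side of the threshold. A difference not called as reported counted as kept when it stayed uncalled, so this count overstates how well the calls held. The 12 fits that lost a call all belong to the differences called as reported. The methods' t-test, an equal-variance test on the 4 arrays compared, gave unadjusted p under 0.05 with at least a doubling for 2 of 3 members in each BORG comparison. After Benjamini-Hochberg adjustment it called none of them, with log2 differences as reported: Plau 3.25 (adjusted p = 0.223) against parental and 3.18 (0.214) against edited cells, Plaur 1.28 (0.303) and 1.57 (0.266), and Plat 0.75 (0.193) against parental cells. It called 0 clusters at all, with 6181, 6413 and 4105 at an unadjusted p under 0.05 in the 3 comparisons, and 0 pathway genes (33, 30 and 20 unadjusted). Plat in BORG minus BORG/sgTRIM28, 0.39, passed limma's test among the clusters above the median signal (adjusted p = 0.047) and among 1 cluster per gene (adjusted p = 0.0491), where fewer clusters were adjusted over and the standard error was also smaller (0.107 and 0.112 against 0.117).

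Leaving out 1 array at a time, differences in BORG minus parental ranged from 2.97 to 3.53 for Plau, 1.04 to 1.52 for Plaur and 0.72 to 0.79 for Plat. In BORG minus BORG/sgTRIM28 they ranged from 2.90 to 3.46, 1.33 to 1.81 and 0.30 to 0.48. In BORG/sgTRIM28 minus parental they ranged from -0.10 to 0.23 for Plau, -0.38 to -0.20 for Plaur and 0.27 to 0.46 for Plat, and the change of sign for Plau (-0.10) came without parental replicate 1. A group left with 1 array was assumed to vary like the others. Pathway genes called ranged from 8 to 30, 14 to 31 and 0 to 0 in the 3 comparisons. The count of 1 between BORG/sgTRIM28 and parental cells became 3 among clusters above the median signal, 5 with 1 cluster per gene, 4 with a variance trend and 0 with only the 4 arrays compared (17 unadjusted over all 6 arrays).

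The labels number the replicates in each group, but arrays sharing a number did not deviate together (r of deviations -0.01, -0.04 and 0.04), so the numbers were not taken as pairs. With the replicate block, members kept their calls: Plau gave adjusted p of 0.00628 and 0.00466, Plaur 0.0292 and 0.0152, and Plat 0.0349 and 0.128 by limma. Pathway genes called with the block were 24, 28 and 0. Over all clusters it called 1290 higher and 740 lower against parental cells (1702 and 1231 without it) and 1 and 0 between edited and parental cells (20 and 30 without it). Median centring moved the BORG minus BORG/sgTRIM28 split from 2194 higher and 1753 lower to 2446 and 1252. Another cluster of the same gene could not be tried, since each member has 1. The cause of these shifts was not tested beyond the number of clusters or arrays each fit used.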
